A study of Bos taurus with 9 samples.

Results

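Among the sequenced loci of extracellular vesicles (EVs) from bovine follicular fluid, those spanning 36 to 50 bases, both ends included, form a class longer than mature microRNA. A locus here is a stretch of the UMD3.1 cow genome on which reads pile up, and its length was taken as end minus start plus 1. Of 101889 loci, 21876 (21.5%) had 36 to 50 bases, and they carried 30.8% of all counts. Small RNA was sequenced from 9 samples, 3 for each follicle size, small with diameters of 3 to 5 mm, medium with 6 to 9 mm, and large above 9 mm, and the question was how the RNA cargo of EVs differs between these sizes. Each sample was the EV fraction of 1 pool of fluid aspirated from the ovaries of slaughtered cows, with no treatment. The fluid came from 3 collections of many ovaries, each of which provided all sizes, but which pools share a collection, and the number, age and cycle stage of the cows, are not given in the sources used here. The samples keep the numbers of the labels: small 1, 2 and 4, medium 5, 6 and 8, and large 10, 11 and 12. Counts per sample summed to between 8941598 and 14664460, so that 3 counts, taken as the lowest detectable level, correspond to between 2.05e-05% and 3.36e-05% of a sample.

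EVs are membrane-bound particles that cells release, and in the follicle they lie in the fluid between the granulosa cells of the wall and the oocyte with its surrounding cells. They carry mainly short RNA. Mature microRNA, which guides the silencing of messenger RNA, is the best known kind, but fragments of transfer RNA, ribosomal RNA, Y RNA and other structured transcripts, as well as RNA from repeated parts of the genome, can also be found in EVs and are often longer than microRNA. The study's search for known and new microRNA, which gave its lists, kept only shorter loci, so loci of 36 to 50 bases could not be on them. For its earlier count of microRNA by overlap with the annotation, the study states no limit of length. The deposited loci carry no gene names, and an annotation of UMD3.1 was not used here, so that the loci are described by position, length and count.

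The share of counts on 36–50 base loci was higher in EVs of larger follicles. It was 16.5, 22.3 and 14.4% in small 1, 2 and 4, 37.5, 34.6 and 26.9% in medium 5, 6 and 8, and 44.8, 45.1 and 37.9% in large 10, 11 and 12. The values of the 3 sizes did not overlap, and the lowest medium sample, medium 8, lay nearest to the small ones. Small follicle EVs averaged 17.8% ± 4.06 (SD, n = 3), medium 33.0% ± 5.50 and large 42.6% ± 4.11. The trend over the 3 sizes gave r = 0.93 and p = 0.00119 by an exact two-sided permutation test, the smallest p that the 1680 arrangements of 9 samples allow, and 0.00714 after adjustment over the 6 length classes. Each pair of sizes reached p = 0.1, the smallest that the exact permutation test of 3 against 3 samples can give. For the whole class, large and small differed by 24.8 percentage points of all counts. Without the large sets of equal-count loci described further on, the difference was 6.50 points of the remaining counts (exact permutation test, p = 0.0131). As a share of all counts, loci outside these sets differed by 2.61 points. A share is relative, so a gain on 36–50 base loci and a loss on all others cannot be told apart. Among the other classes, loci of 18 to 24 bases, the length of mature microRNA, fell from 27.1% ± 6.85 in small to 6.57% ± 3.45 in large follicle EVs (exact permutation test, adjusted p = 0.0179).

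Taken whole, the neighbouring length classes did not move in the same way, although loci of 35 bases alone rose from 2.56% to 5.38% of counts. Loci of 31 to 35 bases, 54608 in number, held 27.9% ± 7.71 of counts in small and 23.7% ± 1.63 in large follicle EVs, with no detectable trend (exact permutation test, p = 0.36, adjusted 0.461). The log2 ratio of counts on 36–50 base loci to those on 31–35 base loci rose with size from −0.64 ± 0.18 through 0.45 ± 0.40 to 0.84 ± 0.20 (SD, n = 3, exact permutation test of the trend, p = 0.00238). Loci longer than 50 bases were few, 451 in all, and fell from 1.53% to 0.634% of counts. Against them the log2 ratio rose from 3.53 ± 0.14 to 5.65 ± 1.00 and 6.07 ± 0.28 (exact permutation test, p = 0.00833).

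**Figure D1:**
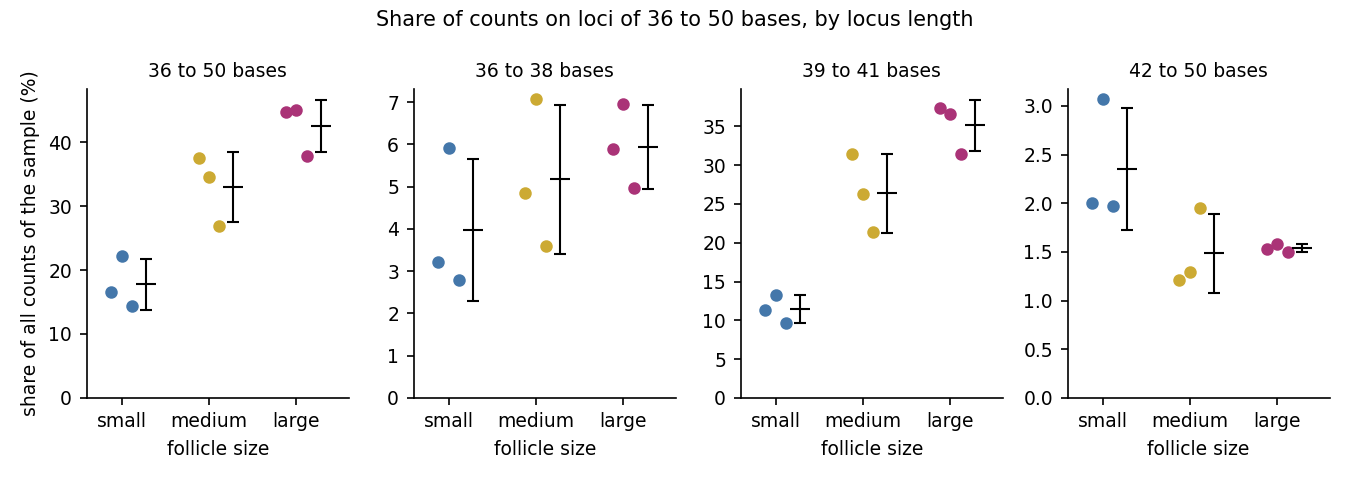
Share of all counts of a sample (%, linear axis from 0, scale differing between panels) on loci of 36 to 50 bases and on 3 ranges of length within them. Each point is 1 sample, and the black mark and bar give the mean and SD of 3 samples. Loci of 39 to 41 bases rise from 11.4% in small to 35.1% in large follicle EVs, whereas those of 42 to 50 bases go from 2.35% to 1.54%.

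The gain came from a narrow range of lengths. For description the class was divided into 36–38, 39–41 and 42–50 bases after the values by length had been seen, and no test was applied to these ranges. Loci of 39 to 41 bases made up 16.5% of the class (3618 loci) but 78.2% of its counts, and their share of all counts was 11.3, 13.3 and 9.67% in small 1, 2 and 4, 31.5, 26.3 and 21.3% in medium 5, 6 and 8, and 37.4, 36.6 and 31.4% in large 10, 11 and 12. All small samples lay below all others, medium 5 was level with large 12, and of the 24.8 percentage points between the small and large means of the whole class, 23.7 lay in these lengths. Loci of 36 to 38 bases were 79.2% of the class and held 16.1% of its counts, at 3.98% ± 1.69 of all counts in small and 5.94% ± 1.00 in large follicle EVs. Their small and large samples overlapped, small 2 (5.91%) lying above large 10 (5.89%) and large 12 (4.96%). The 934 loci of 42 to 50 bases went the other way, with 2.35% ± 0.63 in small, 1.48% ± 0.41 in medium-sized and 1.54% ± 0.04 in large follicles.

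When each of the 15 lengths was tested by itself, 4 rose and 2 fell with follicle size (exact permutation test, adjusted p under 0.05 over the 15). Loci of 40 bases rose from 8.04% ± 1.16 to 18.5% ± 3.4 and 24.6% ± 2.61 of all counts, and held more than any other length (exact permutation test, adjusted p = 0.0119). Those of 39 bases rose from 2.50% ± 0.45 to 8.00% ± 0.48, and those of 41 bases from 0.886% ± 0.204 to 2.49% ± 0.22 (exact permutation test, adjusted p = 0.00893 for each). Loci of 37 bases rose from 0.592% to 1.28% (exact permutation test, adjusted p = 0.0476). The falls were at 47 bases, from 0.0452% to 0.0158%, and at 48 bases, from 0.106% to 0.0396% (exact permutation test, adjusted p = 0.0134 and 0.0476). Loci of 36 bases, 12202 of the class, were at 2.79% ± 1.29, 3.4% ± 1.27 and 3.78% ± 0.73 with no detectable trend (exact permutation test, adjusted p = 0.288). At the edges of the class, loci of 35 bases just outside it went from 2.56% to 5.38% of counts (exact permutation test, unadjusted p = 0.00357). Loci of 50 bases just inside it went from 0.203% to 0.0726%, and loci of 51 bases just outside it from 0.118% to 0.0566%.

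At each of the 15 lengths the average read covered less than the whole locus. The identifier of each locus holds the summed depth over its bases, which divided by the count gives the bases of the locus that a read covered on average (bases per read), not the length of the reads. This came to 28.2 bases per read over loci of 39 to 41 bases, 31.7 over those of 36 to 38 and 26.9 over those of 42 to 50. At 40 bases alone it was 28.2 bases, and at 36 bases alone 31.8, so that an average read covered more of a locus of 36 bases than of one of 40 bases. The quotient exceeded the length of the locus at 5 of the 21876 loci.

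**Figure D2:**
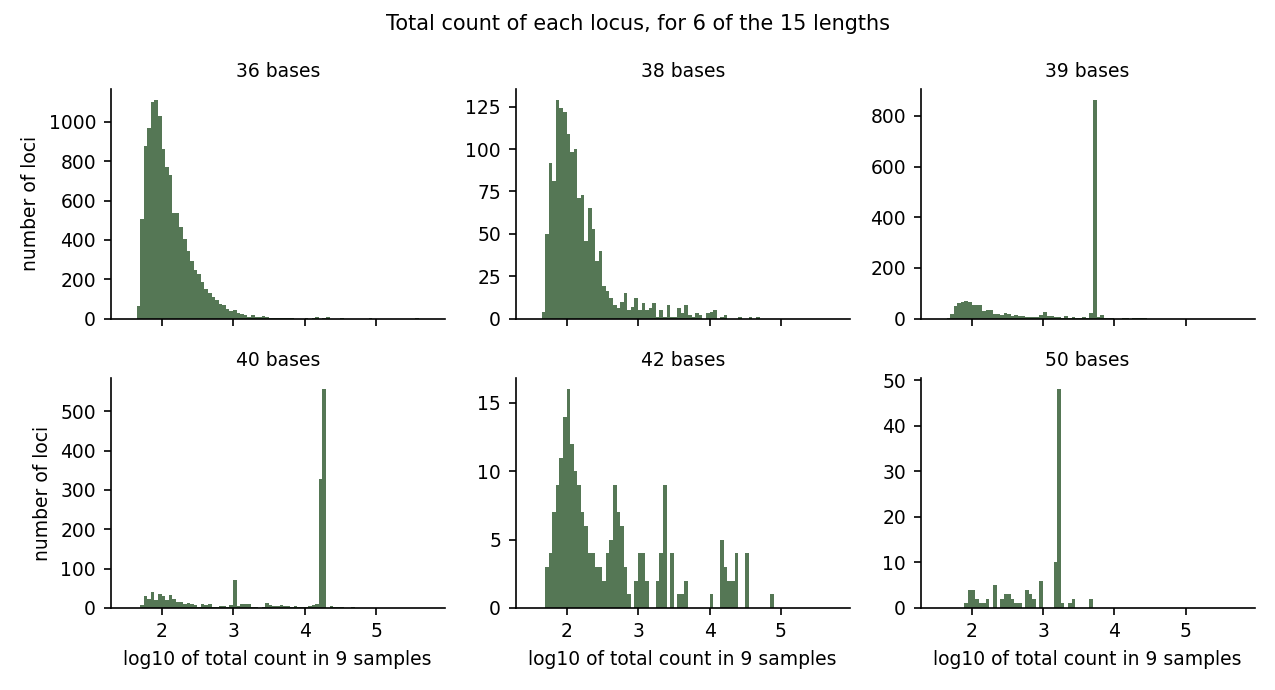
Number of loci by total count in the 9 samples (log10 of the count, bins of equal width on that scale) for loci of 36, 38, 39, 40, 42 and 50 bases, with a vertical scale of its own in each panel. Totals at 36 and 38 bases tail off smoothly, whereas loci of 39, 40 and 50 bases have narrow peaks near 5415, 17850 and 1627 counts per locus, beside a broad group of lower totals.

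Totals of the loci were spread in a manner that differed by length. Over the whole class the median total was 124 counts in the 9 samples, the lowest 46 and the highest 392032. The median at 36 bases was 106 counts, and the distribution fell off smoothly. At 40 bases the median was 17547 counts, since most of these loci had almost the same total. At 39 bases, 859 of 1784 loci belonged to 1 narrow peak at a lower level, and most of the others had far fewer counts. Loci with the same count in every sample can be places of the genome with the same sequence, between which the authors' counting may have split or repeated the same reads. How reads with several matching places were assigned is not given in the sources used here, and without the sequence of the loci this was not tested. Counts of single loci in such sets are therefore uncertain, while their sum over the set is a measure of the set as a whole only if each read was counted once.

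To describe this, loci with at least 500 counts were put in 1 set where their 9 counts lay near the mean of the set (chi-square test, p above 0.001). Their lengths were the same to within 1 base of the highest locus. Of the 3721 loci with that many counts, 3438 fell into 303 sets of at least 2 loci, and 45 sets had 10 loci or more. These 45 sets held 2543 loci and 73.9% of the counts of the class. The largest by count had 731 loci of 40 or 41 bases on 30 chromosomes, 379 on the plus and 352 on the minus strand, with 17254 to 18527 counts each. Its mean count per locus was 1212, 836 and 722 in small 1, 2 and 4, 2863, 2234 and 1731 in medium 5, 6 and 8, and 2757, 2789 and 2706 in large 10, 11 and 12. In CPM, counts scaled to a sample total of 1000000, the set averaged 82.4 ± 11.2 for small, 197 ± 37.6 for medium and 262 ± 27.3 for large follicles, or 3.19-fold more in large than in small. After TMM scaling, which centres samples on the typical locus, the median log2 fold change of the set was −0.06 and 0 of its loci were called by edgeR's quasi-likelihood test at an FDR under 0.05. In CPM, before TMM scaling, all 3 large samples lay above all small ones, and medium 8 was the medium sample closest to the small ones. Within a sample the variance of these 731 counts was 0.964 to 3.11 times their mean, where counting error alone gives 1. Loci far from the mean of the set had been left out, which limits this ratio in advance. Over the 45 sets its median in the 9 samples went from 0.670 to 2.56, so loci of some sets were similar rather than equal within counting error.

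A second set of 867 loci, 859 of them of 39 bases, also lay on 30 chromosomes and on both strands (450 plus, 417 minus). It had a mean of 5415 counts per locus, and went from 23.8 ± 4.02 CPM in small to 60.03 ± 15.1 in medium and on to 80.1 ± 4.32 in large follicle EVs, 3.37-fold more in large than in small. Its median log2 fold change after TMM scaling was 0.03, again with 0 loci called. The variance of its counts was 0.940 to 1.14 times their mean in the 9 samples, a ratio limited in the same way by how the set was formed. Counting 5 further sets whose mean totals lay near that of the first, between 15758 and 18622 counts, 925 loci of about 40 bases held 53.6% of the counts of the class, and 7.61% ± 1.05, 18.2% ± 3.42 and 24.3% ± 2.6 of all counts in the 3 sizes. These sets were formed from the counts themselves, and their values are given with no test.

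Not all sets went up. Of the 45 sets, 39 (2380 loci) had a higher and 6 (163 loci) a lower mean share in large than in small follicle EVs. A set of 51 loci, each of 50 bases and all on the plus strand, lay between 32389438 and 32460712 on chromosome 25 and had a median distance of 1046.5 bases from 1 locus to the next. Its loci averaged 19.3, 25.4 and 25.8 CPM in small 1, 2 and 4, 11.1, 8.56 and 31.1 in medium 5, 6 and 8, and 6.08, 5.71 and 14.7 in large 10, 11 and 12. The large samples were all below the small ones, while medium 8 was the highest of the 9, and 19 of the 51 loci were called lower in large than in small after TMM scaling. Without the 45 sets, the remaining 19333 loci held 6.86% ± 2.39 of all counts in small, then 8.14% ± 1.65 and 9.48% ± 1.26 in the larger sizes. Of these, the 18155 loci with fewer than 500 counts rose from 1.14% ± 0.37 to 3.56% ± 0.76, and the 1178 others were at 5.72% ± 2.03 and 5.92% ± 0.51.

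Counts of the class were spread over many loci, with a few high ones in small follicle EVs. The highest locus held 1.28% of the pooled counts of the class, the highest 10 held 2.81%, the highest 1000 (4.57% of the loci) held 61.9% and the highest 2000 held 83.2%. The highest 10 took 5.75, 11.9 and 6.93% of the counts of the class in small 1, 2 and 4, 1.02, 2.23 and 4.07% in medium 5, 6 and 8, and 0.870, 0.819 and 1.31% in large 10, 11 and 12. No value of the small samples overlapped with those of the other sizes. The means fell from 8.19% ± 3.25 to 2.44% ± 1.54 and 1.00% ± 0.27 (SD, n = 3, exact permutation test of the trend, p = 0.00238). These 10 loci were picked by mean CPM over the same 9 samples, so that loci high only in small samples could enter. With the 10 highest loci of each sample itself, the difference of large minus small was −8.05 points (exact permutation test of the trend, p = 0.00238). Fewer loci were needed for 50% of the counts in small follicle EVs, 704, 624 and 677, than in medium (769, 848 and 725) or large follicle EVs (759, 796 and 782) (exact permutation test, p = 0.0333). For the highest 1000 loci together there was no detectable trend, with 61.9% ± 0.39 in small and 62.1% ± 1.37 in large follicle EVs (exact permutation test, p = 0.908).

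**Figure D3:**
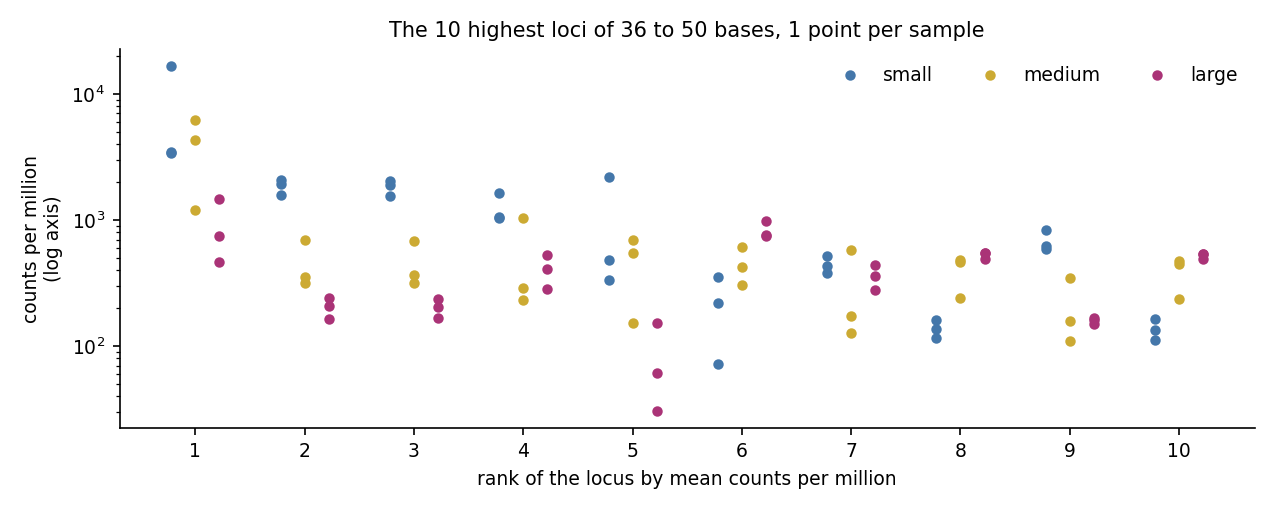
CPM, with counts scaled to the sample total (log axis), of the 10 highest 36–50 base loci, ranked by mean over the 9 samples. Each point is 1 sample, coloured by follicle size. The large follicle samples are all below the small ones at ranks 1, 2, 3, 4, 5 and 9, and all above them at ranks 6, 8 and 10.

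The highest locus was on the minus strand of chromosome 2, from 125390396 to 125390431, with 36 bases. It was at 3414, 16487 and 3448 CPM in small 1, 2 and 4, at 1204, 4302 and 6148 in medium 5, 6 and 8, and at 741, 462 and 1480 in large 10, 11 and 12. The large samples lay below all small ones, and small 2 stood far above the other 8 samples. Its log2 fold change in large over small follicle EVs, after TMM scaling, was −4.55 ± 0.98 (SE, edgeR quasi-likelihood FDR = 0.0163). The call was lost without small 2, large 10 or large 11 (edgeR quasi-likelihood FDR = 0.0598, 0.0932 and 0.0817). The locus at rank 5, with 38 bases on chromosome 20 from 49070292 to 49070329, was also highest in small 2 (2178 CPM) and lowest in large 11 (30.8), with a log2 fold change of −5.00 ± 1.02 (SE, edgeR quasi-likelihood FDR = 0.0122), lost without large 10 or large 11 (FDR = 0.0736 and 0.0589). Bases per read were 33.9 at the first and 36.9 at the second of these loci, close to their full lengths.

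Ranks 2, 3, 4 and 9 lay in 2 places. A pair was on chromosome 18, at 58243224 to 58243259 (plus strand, 36 bases) and at 58241921 to 58241962 (minus strand, 42 bases). The other pair was on the plus strand of chromosome 2, at 66270276 to 66270311 (36 bases) and at 66270647 to 66270688 (42 bases). The 36 base loci of the 2 chromosomes could not be told apart by count, with totals of 82858 and 82238. On chromosome 18 the 36 base locus was at 1567, 2088 and 1912 CPM in small 1, 2 and 4, at 315, 355 and 688 in medium 5, 6 and 8, and at 206, 163 and 240 in large 10, 11 and 12. The 3 sizes did not overlap, and its log2 fold change in large over small was −4.88 ± 0.70 (SE, edgeR quasi-likelihood FDR = 0.00192), that of its counterpart on chromosome 2 being −4.86 ± 0.70 (FDR = 0.00183). In medium over small both fell as well, by 3.09 and 3.07 on the log2 scale (edgeR quasi-likelihood FDR = 0.0401 and 0.0388). The 42 base loci fell by 3.24 on chromosome 18 and by 3.79 on chromosome 2 on the log2 scale in large over small (edgeR quasi-likelihood FDR = 0.0392 and 0.00662). The call on chromosome 18 was lost without any 1 of the small or large samples (edgeR quasi-likelihood FDR = 0.0704 to 0.178) and with equal-count sets summed (FDR = 0.0659), whereas that on chromosome 2 was kept.

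Of the other 4 loci among the 10 highest, none passed the threshold in any pair of sizes. Ranked sixth, a 40 base locus on chromosome 6 at 8896519 to 8896558 was at 220, 355 and 72.7 CPM in small 1, 2 and 4, and at 765, 987 and 740 in large 10, 11 and 12. Its large samples were all above its small ones on that scale, but after TMM scaling its log2 fold change was 0.31 ± 0.43 (SE, edgeR quasi-likelihood FDR = 0.809). Ranks 8 and 10, 40 base loci on chromosome 27 at 35842838 to 35842877 and on chromosome 10 at 59496291 to 59496330, formed an equal-count pair at 138 ± 23.2 and 137 ± 26.4 CPM in small and 528 ± 29.7 and 519 ± 28.6 in large follicle EVs. Their TMM-scaled log2 fold changes were 0.22 ± 0.32 and 0.21 ± 0.32 (SE, edgeR quasi-likelihood FDR = 0.822 and 0.833). Rank 7, 38 bases on chromosome X at 62078883 to 62078920, averaged 443 ± 70.9 CPM for small, 292 ± 245 for medium and 359 ± 78.2 for large follicles, and its log2 fold change of −1.99 ± 0.75 in large over small had an edgeR quasi-likelihood FDR of 0.187.

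The class was spread over 31 chromosomes, 1 to 29, X and the mitochondrial genome (MT), in much the same proportion as all loci. Chromosome 1 held the most loci, 1159 or 5.30% of the class, against 5.23% of all loci. The widest gap was at chromosome 25, with 995 loci or 4.55% of the class against 3.52% of all loci. On the plus strand lay 51.6% of the class, against 50.98% of all loci. The counts were less even. Chromosome 8 held 10.5% of the counts of the class on 4.92% of its loci, chromosome 4 held 8.33%, chromosome 6 held 7.86% and chromosome 25 held 6.76%, whereas chromosome 23 held 0.435% and chromosome 29 held 0.580%.

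**Figure D4:**
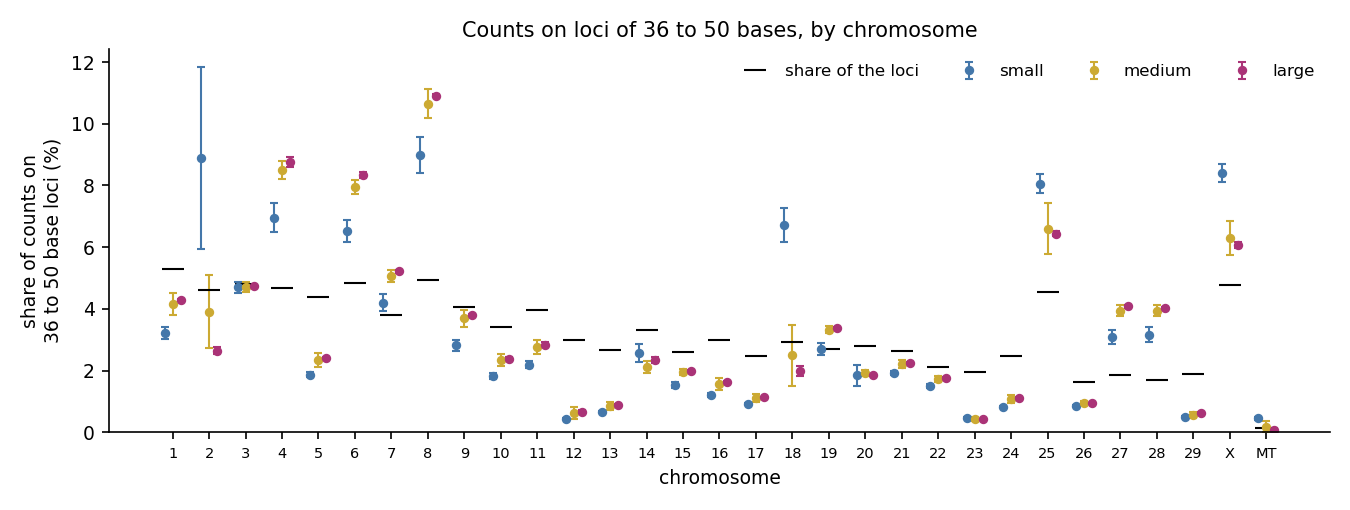
Share of the counts of the class (%, linear axis) on each chromosome, as mean and SD (bars) of 3 samples per follicle size, and share of the loci of the class (black dash). Small follicle EVs lie above the other sizes at chromosomes 2, 18, 25, X and MT, and below them at 8, 4 and 6.

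Within the class, the share of counts rose with follicle size on 21 chromosomes and fell on 5 (exact permutation test, adjusted p under 0.05 over 31 chromosomes). As the shares add up to 100%, a fall on a few chromosomes raises those of the others. The falls were on chromosomes 2, 18, 25, X and MT. Taken as shares of all counts of a sample, an alternative added after seeing the data, 28 chromosomes rose and 0 fell (exact permutation test, adjusted p under 0.05), the exceptions being 2, 18 and MT. Chromosome 18 held 6.21, 6.65 and 7.31% in small 1, 2 and 4, 1.82, 2.02 and 3.64% in medium 5, 6 and 8, and 1.87, 1.93 and 2.17% in large 10, 11 and 12 (exact permutation test, adjusted p = 0.0208). The small samples did not overlap with the others, and medium 8 was between the 2 other medium samples and the small ones. Chromosome 2, which carries the highest locus, fell from 8.88% ± 2.94 to 3.91% ± 1.19 and 2.64% ± 0.11 (exact permutation test, adjusted p = 0.0208). Chromosome 25 fell from 8.06% ± 0.30 to 6.44% ± 0.08, and X from 8.41% ± 0.30 to 6.07% ± 0.09 (exact permutation test, adjusted p = 0.0352 and 0.0208). As shares of all counts both rose, from 1.42% ± 0.28 to 2.74% ± 0.25 and from 1.49% ± 0.33 to 2.59% ± 0.22 (exact permutation test, adjusted p = 0.00335 for each). Among the rises, chromosome 8 went from 8.99% ± 0.59 to 10.9% ± 0.05 and chromosome 6 from 6.53% ± 0.35 to 8.34% ± 0.09 (exact permutation test, adjusted p = 0.0208 for each).

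Mitochondrial loci were few and took a smaller share of the class in larger follicles. There were 30, with 91 to 10027 counts each, 28 of them on the plus strand, and 20 ended before base 3000 of the mitochondrial sequence. They held 0.404, 0.452 and 0.501% of the counts of the class in small 1, 2 and 4, 0.0694, 0.091 and 0.397% in medium 5, 6 and 8, and 0.0480, 0.0473 and 0.150% in large 10, 11 and 12 (exact permutation test, adjusted p = 0.0226). Medium 8 was again close to the small samples. As a share of all counts in the sample they were at 0.0800% ± 0.0182 in small and 0.0332% ± 0.0203 in large follicle EVs, with medium 8 the highest of all (0.107%), and the trend did not pass (exact permutation test, p = 0.0917, adjusted 0.0947).

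In windows of 1000000 bases, 2670 of which held at least 1 locus of the class, the median was 7 loci. The densest window was on chromosome 25, with 462 loci between 32014147 and 32995438, or 46.4% of the loci of the class on that chromosome, and 451 of them on the plus strand. It held 0.570, 0.864 and 0.569% of all counts in small 1, 2 and 4, 0.201, 0.259 and 0.575% in medium 5, 6 and 8, and 0.308, 0.349 and 0.350% in large 10, 11 and 12. Medium 8 was at the level of the small samples, and the large ones were below them. The next windows had 110 loci on chromosome 3 (82115578 to 82911549) and 94 on chromosome 8 (56019249 to 56968263), the latter with 93 on the plus strand. These rose from 0.310% ± 0.047 to 1.02% ± 0.07 and from 0.244% ± 0.041 to 0.821% ± 0.054 of all counts. A window of 93 loci on chromosome 18, from 58223121 to 58998924, holds the pair of high loci described above and went from 0.912% ± 0.192 to 0.360% and 0.288% ± 0.054. The windows were picked for their number of loci, and no test was applied.

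Single loci were compared between sizes with edgeR's quasi-likelihood test over all 85601 loci that passed its filter on low counts, 19261 of them of 36 to 50 bases. TMM scaling was used, which centres the samples on the bulk of the loci, and its factors were 0.407 to 0.617 in small and 1.31 to 1.97 in large samples, with 0.721 in medium 8 against 1.46 and 1.93 in the other medium samples. A fold change is therefore relative to the typical locus and not to the total count. Scaling by the total count alone moved the median log2 fold change of all loci in large over small from 0.09 to 1.82, and in medium over small from 0.05 to 1.5. Under TMM the median of the class was 0.20 in large over small and 0.08 in medium over small.

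In large versus small follicle EVs, 53 loci of the class were higher (0.275%, against 0.231% of all loci tested) and 936 were lower (4.86%, against 5.63% of all), together 989 (5.13%, against 5.87% of all). With the total count in place of TMM the split in the class was 13266 higher and 827 lower of 19261 tested. Over all 85601 loci tested it was 51366 higher and 4285 lower. Normalized counts of the groups did not overlap at 3140 higher loci (16.3%, against 12.9% of all tested) and 1810 lower loci (9.40%, against 13% of all). The lower loci were unevenly spread over the lengths. Of 914 tested loci of 42 to 50 bases 419 were lower (45.8%) and 0 were higher, of 3443 loci of 39 to 41 bases 212 were lower (6.16%) and 3 higher, and of 14904 loci of 36 to 38 bases 305 were lower (2.05%) and 50 higher. The median log2 fold change was −2.76, −0.02 and 0.36 in these ranges. By chromosome, lower loci made up 28.7% of those tested on chromosome 25 (267 of 930), 15.2% on chromosome 18 (87 of 573) and 43.3% on MT (13 of 30), against 1.18% on chromosome 1 (12 of 1020). Shares over all loci tested on each chromosome are not given here, so whether these values are particular to the class was not tested. Loci of a chromosome need not be independent, as 462 of the 995 on chromosome 25 lay in 1 window of 1000000 bases. The number called depended on single samples, with 1484 loci without medium 8, 639 without small 1, 605 without small 4, 482 without large 10 and 430 without large 11.

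**Figure D5:**
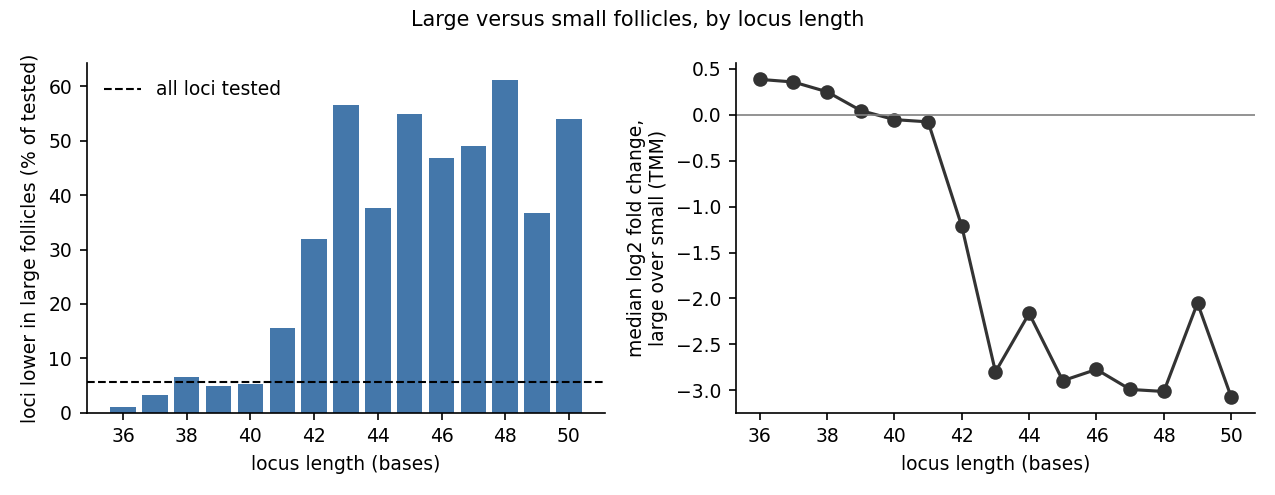
Large versus small follicle EVs by length of the locus. Left, loci lower in large follicle EVs at an edgeR quasi-likelihood FDR under 0.05 as a percentage of those tested (bars, from 0), with the percentage over all loci tested (dashed line, 5.63%), and right, the median log2 fold change after TMM scaling, which goes from 0.38 at 36 bases to −3.07 at 50 bases.

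Of the tested loci of the class, 3443 averaged 100 counts or more in at least 1 of the 3 sizes. How their calls split between higher and lower in large follicle EVs depended on which loci were fitted. When only loci this abundant were fitted, 11770 in all, 242 of the 3443 were called higher and 499 lower (edgeR quasi-likelihood FDR under 0.05). Over the 11770 loci, 290 were higher and 2050 lower. In the fit of all 85601 loci, 198 (0.231%) were called higher and 4823 (5.63%) lower, counting loci of any abundance. The share among all loci this abundant is not given here. Of the 3443 in that fit, only 4 were called higher without overlap between large and small, against 364 lower. The highest fold was at a 37 base locus on chromosome 26, at 28224631 to 28224667, with 13, 15 and 9 counts in small 1, 2 and 4, 65, 134 and 24 in medium 5, 6 and 8, and 162, 126 and 94 in large 10, 11 and 12. Its log2 fold change in large over small was 1.71 ± 0.41 (SE, edgeR quasi-likelihood FDR = 0.0293), and it belonged to an equal-count set of 18 loci, of which it was the only 1 called and whose median log2 fold change was 0.95. The other 3, on chromosome 3 at 45404757 to 45404792, chromosome 4 at 106677563 to 106677599 and chromosome 29 at 22055485 to 22055520, had log2 fold changes of 1.51, 1.43 and 1.42 (edgeR quasi-likelihood FDR = 0.0324, 0.0484 and 0.0471). Each of these also belonged to an equal-count set, of 6, 5 and 14 loci, and in the last of these sets 1 locus was called and the median log2 fold change was 1.24. Leaving out 1 of the 9 samples ended the call of the chromosome 26 locus in 6 cases and of each of the other 3 in 7.

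The largest falls were at loci of moderate count that nearly vanished from large follicle EVs. A 50 base locus on chromosome 13, at 31950489 to 31950538, had 144, 141 and 93 counts in small 1, 2 and 4, 12, 9 and 46 in medium 5, 6 and 8, and 5, 0 and 0 in large 10, 11 and 12, with a log2 fold change in large over small of −7.73 ± 1.30 (SE, edgeR quasi-likelihood FDR = 0.00422). The fitted size of such a fall depends on the prior count of the fit. On chromosome 7, a 36 base locus at 63778379 to 63778414 had 263, 255 and 176 counts in small 1, 2 and 4 and 2, 0 and 8 in large 10, 11 and 12 (log2 fold change −7.63, edgeR quasi-likelihood FDR = 0.00244). This locus belonged to an equal-count set of 2 loci. A 42 base locus on chromosome 23, at 36294414 to 36294455, had 126, 106 and 77 counts in small 1, 2 and 4, 16, 22 and 18 in medium 5, 6 and 8, and 1, 2 and 3 in large 10, 11 and 12. The 3 sizes were apart at this locus, and its log2 fold change was −7.21 ± 0.61 in large over small and −3.78 ± 0.49 in medium over small (SE, edgeR quasi-likelihood FDR = 0.000475 and 0.00982). The fourth, 41 bases on chromosome 17 at 64809337 to 64809377, had 674, 517 and 503 counts in small 1, 2 and 4 and 10, 4 and 22 in large 10, 11 and 12 (log2 fold change −7.13, edgeR quasi-likelihood FDR = 0.00168). All 4 falls remained below the FDR threshold whichever of the 9 samples was left out.

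In medium versus small follicle EVs, 3 loci of the class were higher (0.0156%, against 0.0105% of all tested) and 259 were lower (1.34%, against 1.45% of all), together 262 (1.36%, against 1.46% of all). With total-count scaling there were 7318 higher and 463 lower, against 24962 higher and 2332 lower over all 85601 loci tested. No overlap between the groups was seen at 1142 higher loci (5.93%, against 5.4% of all) and 1420 lower loci (7.37%, against 8.02% of all). The number called turned on medium 8, with 1345 without it, and fell to 0 without medium 5 or without medium 6, 16 without small 1, 52 without small 2 and 29 without small 4. The largest fall was at a 45 base locus on chromosome 8, at 112897147 to 112897191, with 125, 117 and 113 counts in small 1, 2 and 4, 9, 4 and 16 in medium 5, 6 and 8, and 0, 4 and 7 in large 10, 11 and 12. Its log2 fold change in medium over small was −4.74 ± 0.91 (SE, edgeR quasi-likelihood FDR = 0.0283). Next were a 39 base locus on chromosome 12 (18173172 to 18173210), a 40 base locus on chromosome 2 (112900041 to 112900080) and a 38 base locus on chromosome 14 (1505053 to 1505090), which fell by 4.42, 4.36 and 4.19 on the log2 scale (edgeR quasi-likelihood FDR = 0.0357, 0.0119 and 0.0358). Those on chromosomes 12 and 14 each belonged to an equal-count set of 2 loci. With 1 of the 9 samples left out, the call in medium over small was kept in 4 of 9 cases on chromosome 8. On chromosomes 12, 2 and 14 it was kept in 2, 7 and 3 of 9 cases. At the chromosome 2 locus counts were 103, 177 and 93 in small 1, 2 and 4, 7, 21 and 17 in medium 5, 6 and 8, and 25, 20 and 11 in large 10, 11 and 12, so that medium and large overlapped. Both comparisons with small follicle EVs share the same 3 small samples.

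Between large and medium follicle EVs 0 of 19261 loci of the class passed the edgeR quasi-likelihood test (0% of all tested). An unadjusted p under 0.05 in that test was reached by 700 loci, a smaller fraction than the 0.05 that no difference would give. DESeq2 called 55 (4 higher and 51 lower), against 11 higher and 604 lower over all 85601 loci tested. The exact test of edgeR called 39 (5 higher and 34 lower), against 32 higher and 476 lower over all. Groups did not overlap at 1339 higher loci of the class (6.95%, against 6.21% of all) and 526 lower ones (2.73%, against 5.97% of all). The median log2 fold change was 0.13 at 36–38 bases, 0.01 at 39–41 bases and −0.74 at 42–50 bases.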

How the data were processed

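Small RNA of EVs from 9 pools of bovine follicular fluid, 3 per follicle size, was sequenced by the study. As the study's methods state, the authors trimmed 3′ adapters, mapped reads with BWA 0.7.5a to UMD3.1, merged the mapped reads into loci, removed loci of low depth, trimmed the rest to the stretch above a set fraction of the highest base depth, and deposited raw counts of reads per locus and sample, with no normalization. How reads that match several places were assigned, and which pools came from the same collection day, are not given in the sources used here. Each of 3 collections provided all sizes, so that pools of different sizes may be related, but all tests treat the 9 pools as independent, and p-values measure the spread between them.

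Counts were used as deposited, and the summed depth over the length was at least 45 at every locus. Loci of 36 to 50 bases were taken by their start and end. Shares of counts were tested against the size rank by an exact two-sided permutation test, with Benjamini-Hochberg adjustment over the 6 length classes, the 15 lengths or the 31 chromosomes. All loci kept by filterByExpr (85601) were fitted in edgeR 4.0.16 (limma 3.58.1, R 4.3.3) with TMM and the 3 sizes as groups, and each pair was tested by the two-sided quasi-likelihood test with Benjamini-Hochberg adjustment over all of them. Loci with an FDR under 0.05 were called, and the SE is the log2 fold change over the square root of F. Overlap between groups was judged on TMM-scaled CPM. Sets of equal count required a chi-square p above 0.001 against the mean of the set. Python 3.11.15, numpy 2.4.6, scipy 1.17.1, pandas 2.3.3 and matplotlib 3.10.9 were used. Procedures were tested on simulated data. Alternatives were DESeq2 1.42.0, other scalings and filters, and each sample left out.

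Named loci are the 10 with the highest mean CPM and, for each pair of sizes, the 4 largest rises and falls among called loci whose groups do not overlap and whose mean count is at least 100 in 1 size. Other loci were not named singly. The locus class and these choices were made with earlier results of these data known. Replicate samples differed far beyond counting error (chi-square per degree of freedom 6.49 to 65.1), so none was counted as a repeat. The limit of 3 counts covers counting error only. Annotation classes and sequences of the loci are not reported, as a genome of build UMD3.1 was not used here.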

Additional observations from a re-analysis of the deposited data

How the results depend on the processing

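The share of counts on 36–50 base loci, the share of the 10 highest loci and both log2 ratios kept their direction and stayed under p = 0.05 (exact permutation test) under all alternatives run. Leaving out 1 sample gave differences of large minus small of 23.2 to 27.2 percentage points for the share, −8.40 to −5.34 points for the 10 highest loci, and 1.39 to 1.59 and 2.45 to 2.70 for the log2 ratios to loci of 31 to 35 and over 50 bases. Without the equal-count sets of at least 10 loci, an alternative chosen after seeing the data, the share differed by 6.50 points of the remaining counts, and the ratios by 0.71 and 1.76.

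The number of loci called in large versus small (989) was 14093 with the total count without TMM and 1532 when fitted on these 2 groups only, and 430 to 1484 with 1 sample left out. In medium versus small (262) it was 7781 with the total count, 461 at an FDR under 0.1, 593 with edgeR's exact test, 614 with DESeq2, and 0 to 1345 with 1 sample left out. In large versus medium (0) it was 3 with the total count, 1 among loci reaching a group mean of 100, 39 with edgeR's exact test, 55 with DESeq2, and 0 to 0 with 1 sample left out. With equal-count sets summed, also chosen after seeing the data, 742, 184 and 0 were called. The causes were not tested.

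As a share of all counts in place of the counts of the class, an alternative also added later, the difference of large minus small turned from −1.62 to 1.32 points on chromosome 25 and from −2.34 to 1.09 on X, and those on 2, 18 and MT no longer passed (−0.53, −0.35 and −0.05). Among the fold changes of single named loci, 1 turned sign, that on chromosome 6 at 8896519, which lay between −0.042 (without small 4) and 0.64 (without small 2). With 1 sample left out 58 were no longer and 1 was newly past the threshold, against 174 on the same side, and under the other alternatives 6 were lost and 4 gained, against 183. No paired analysis was possible because the sizes share no replicate numbers and, although each of 3 collections provided all sizes, the sources used here do not say which pools were collected together. Shares by annotation class were not run, as no annotation of UMD3.1 was used here. Depth limits mainly the 18155 loci with fewer than 500 counts, which held 8.15% of the counts of the class.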

Other observations

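Some loci of the largest equal-count sets lay at a similar distance from another locus. A locus on the same strand that starts 61 to 65 bases upstream was present for 107 of the 867 loci of about 39 bases (12.3%), for 36 of the 731 loci of about 40 bases (4.92%), and for 270 of all 21876 loci of the class (1.23%). The distance was chosen after the positions had been seen, and no test was applied.

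Of the 936 loci that fell between small and large follicle EVs, 12 had no count in any large sample. The lower loci lay on all 31 chromosomes and had a median total of 258 counts in the 9 samples, against 177 for the 53 higher loci and 124 for the whole class.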
